A study of Mus musculus with 6 samples.

Results

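The collagen chains described here are those of the fibrils, beaded filaments, fibril surfaces and anchoring structures of connective tissue, together with 3 chains that span the plasma membrane. They were taken as all array probes whose gene name is that of a collagen chain, leaving out types IV, XV, XVII and XVIII, the collagens of the basement membrane and hemidesmosome. The rule itself used no signal value, but it was chosen with earlier results of these data known. The rule found 32 genes of the 36163 gene names on the array, through 48 of its 55681 probes. RNA came from prostate cells of untreated male FVB/N Tg 11.5kb-GFP mice at 6 days of age, sorted into LSC GFP+ and LSC GFP- populations, with 3 independent samples and 3 single-colour arrays for each. LSC cells are negative for the lineage markers Ter119, CD31 and CD45 and positive for Sca-1 and CD49f, a gate that holds prostate basal cells. Both populations carry the same transgene, in which GFP is driven by the promoter of s-SHIP, a short form of the SHIP1 phosphatase, so they differ in whether GFP was detected and not in genotype. The study also saw GFP in vascular smooth muscle, and the labels do not give the number of mice behind each sample.

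Collagens are built from chains that wind around each other into a stiff helix, which requires a glycine in each successive triplet of residues. Fibrillar collagens, mainly types I, III and V, assemble into the cross-striated fibrils that fibroblasts and smooth muscle cells lay down around the glands of the prostate. Fibril-associated collagens with interrupted helices, or FACITs, sit on the surface of those fibrils, type VI forms beaded filaments close to cells, type VIII forms open networks, and type VII forms the fibrils that anchor an epithelial basement membrane to the stroma beneath it.

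Some chains were lower and others higher in LSC GFP+ cells. Col1a1, Col1a2, Col3a1, Col6a1 and Col6a2, the main chains of types I, III and VI, were 3.87-fold to 4.52-fold lower, whereas Col16a1, Col27a1, Col9a2, Col9a3, Col7a1 and Col8a1 were higher by 1.61-fold to 2.15-fold. The values are log2 signals from which the 75th percentile of all probe spots on the array was subtracted, so 0 is that percentile, and a difference is always LSC GFP+ minus LSC GFP-. A probe was tested when all 3 arrays of one population or the other placed it above background, which held for 24 of the 32 genes, each read at its brightest such probe. With an unadjusted p under 0.05 from limma as the threshold, 14 of the 24 genes passed, against 7.98% of all 23943 genes tested. In each direction, 8 were lower and 6 higher, against 4.44% and 3.54% of all genes. None passed after Benjamini-Hochberg adjustment over all 37005 probes tested, where the lowest adjusted p of a collagen was 0.107 and 1 probe of any gene passed (0.0027%).

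Counted over probes, 15 of 31 tested collagen probes passed the threshold, against 7.9% of all probes. Of these, 7 were higher and 8 lower, against 3.38% and 4.53% of all probes. In 14 of the 31 the populations did not overlap, against 12.3% of all probes. The probes of Col12a1, Col5a3 and Col6a6 entered the test only through LSC GFP- cells, since they were not above background on every LSC GFP+ array. A further 17 collagen probes were not tested, 13 of them above background on no array, which left 8 genes without a test. Among the 28 collagen probes above background on all 6 arrays, 12 passed, 7 of them higher and 5 lower, against 7.4% of all such probes. The median difference over the 24 genes was 0.05, beside -0.01 over all genes. It lies among the 10 genes that did not pass, which ran from -1.20 to 0.34, between Col20a1 at 0.03 and Col11a2 at 0.06. The 3 against 3 design cannot give an exact permutation p below 0.1. The limma p-values set each difference against the spread between these samples, moderated over all probes, and take the samples as unpaired.

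**Figure D1:**
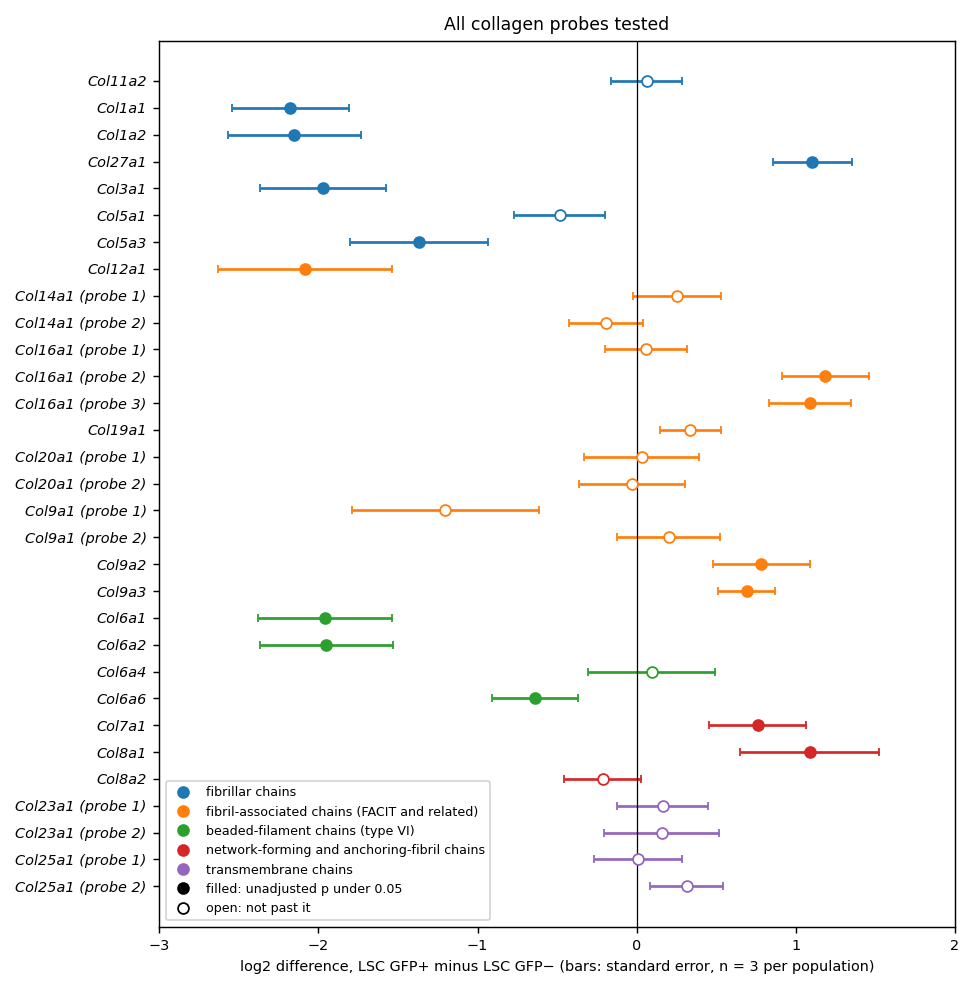
Log2 difference between LSC GFP+ and LSC GFP- cells (horizontal axis) for the 31 collagen probes tested, coloured by class, with bars for the standard error and filled points for an unadjusted p under 0.05. The filled points of Col1a1, Col1a2, Col3a1, Col5a3, Col12a1, Col6a1, Col6a2 and Col6a6 lie left of 0, from -2.18 to -0.64, and those of Col27a1, Col16a1, Col9a2, Col9a3, Col7a1 and Col8a1 right of it, from 0.69 to 1.19.

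A collagen helix can be read in the array's own probes. In 3 tested probes the glycine codons, GGN, recur at the spacing of the helix, apart from a shorter step within the Col14a1 probe. The probes are shown because they measure the helix part of the transcript, where chains resemble each other, with the GGN codons in capitals and positions on mm9, the build of the array design.
Col14a1 probe, chr15:55347733-55347792, + strand: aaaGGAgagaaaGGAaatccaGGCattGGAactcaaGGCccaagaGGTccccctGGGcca
Col16a1 probe, chr4:129756457-129756516, + strand: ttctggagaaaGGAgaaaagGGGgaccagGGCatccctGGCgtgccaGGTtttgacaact
Col25a1 probe, chr3:130270497-130270556, + strand: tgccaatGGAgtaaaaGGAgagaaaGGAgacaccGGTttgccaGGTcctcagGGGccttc
The promoters below belong to 3 chains that were lower and 2 that were higher, each as the 250 bases before the transcription start in RefSeq on GRCm38.p6, read along the gene's strand. Capitals mark a match on either strand to the TATA box (TATAAA), the CCAAT box (CCAAT), the GC box (GGGCGG), the AP-1 motif (TGANTCA) or the TEAD motif (GGAATG), none of which contains another.
Col1a2 promoter, chr6:4505368-4505617, + strand: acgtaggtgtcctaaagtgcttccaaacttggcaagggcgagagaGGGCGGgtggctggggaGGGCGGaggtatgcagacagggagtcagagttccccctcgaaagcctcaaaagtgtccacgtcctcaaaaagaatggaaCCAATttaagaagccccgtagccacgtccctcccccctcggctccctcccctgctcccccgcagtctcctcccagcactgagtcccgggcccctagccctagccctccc
Col3a1 promoter, chr1:45311288-45311537, + strand: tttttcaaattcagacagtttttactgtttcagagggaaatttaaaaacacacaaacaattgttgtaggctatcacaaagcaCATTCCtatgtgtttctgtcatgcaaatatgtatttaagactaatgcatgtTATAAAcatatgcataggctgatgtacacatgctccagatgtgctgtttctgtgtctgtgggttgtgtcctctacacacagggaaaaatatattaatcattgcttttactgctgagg
Col6a1 promoter, chr10:76726045-76726294, - strand: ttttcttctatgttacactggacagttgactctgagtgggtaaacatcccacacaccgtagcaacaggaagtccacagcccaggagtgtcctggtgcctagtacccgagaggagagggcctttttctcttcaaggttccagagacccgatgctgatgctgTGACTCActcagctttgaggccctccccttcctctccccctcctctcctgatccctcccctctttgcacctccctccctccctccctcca
Col16a1 promoter, chr4:130047590-130047839, + strand: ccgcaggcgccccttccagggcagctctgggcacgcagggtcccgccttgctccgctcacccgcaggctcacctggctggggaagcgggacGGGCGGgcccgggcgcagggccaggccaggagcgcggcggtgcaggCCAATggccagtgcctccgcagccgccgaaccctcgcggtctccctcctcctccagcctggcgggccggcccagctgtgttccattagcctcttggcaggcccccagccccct
Col27a1 promoter, chr4:63215162-63215411, + strand: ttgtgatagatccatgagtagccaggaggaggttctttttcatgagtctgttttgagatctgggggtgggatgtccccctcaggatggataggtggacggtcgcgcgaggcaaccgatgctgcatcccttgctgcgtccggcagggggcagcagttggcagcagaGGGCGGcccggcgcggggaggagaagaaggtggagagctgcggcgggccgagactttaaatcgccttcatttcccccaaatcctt
In the Col1a2 window the CCAAT box began 109 bases before the start and the GC boxes 188 and 205 bases before it. Col3a1 held a TATA box 117 bases before its start, and Col6a1 an AP-1 motif 90 bases before its start. RefSeq windows were at hand for 25 of the 32 genes, among them 6 of the 8 lower and 5 of the 6 higher chains. A GC box was in the window of all 5 higher chains, 4 of the 6 lower chains and 16 of the 25, beside 32.7% of 32851 mouse promoter windows. A CCAAT box was in 2 of 5 higher and 2 of 6 lower chains, beside 33.8% of windows. The TATA box, the AP-1 motif and the TEAD motif were in 1, 1 and 2 of the 6 lower chains and in 0 of the 5 higher ones, beside 12.4%, 6.75% and 12.6% of windows. These matches describe letters in a window, and no binding was measured.

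The fibrillar class had 11 genes on the array, of which 7 were tested. 4 of them fell, 1 rose, and the class median was -1.37. Col1a1 encodes the alpha 1 chain of type I collagen, the main fibrillar collagen of most connective tissues. Its probe (chr11:94813115-94813174) read -0.63, -1.29 and -0.90 in LSC GFP+ replicates 1 to 3 and 2.01, 0.61 and 1.09 in LSC GFP- replicates 1 to 3. Every LSC GFP+ sample lay below every LSC GFP- sample, and the mean fell from 1.24 ± 0.72 to -0.94 ± 0.33 (SD, n = 3 each). The difference was -2.18 ± 0.37 (SE), a 4.52-fold lower signal, with an adjusted p of 0.107. Col1a2, the partner chain that joins Col1a1 in type I collagen, behaved alike. It read 1.83, 1.23 and 2.05 in LSC GFP+ cells and 4.72, 3.09 and 3.76 in LSC GFP- cells. The populations were again apart, by -2.15 ± 0.42 (SE), 4.44-fold, with an adjusted p of 0.139.

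Col3a1, the chain of type III collagen, which shares fibrils with type I in extensible tissues, joined them with a difference near this size. Its signals were 1.29, 0.96 and 1.57 in LSC GFP+ cells against 4.07, 2.44 and 3.22 in LSC GFP- cells, without overlap. The difference was -1.97 ± 0.40 (SE), 3.92-fold, with an adjusted p of 0.148. All 3 probes were above background on every array, so type I and type III chains were measured in both populations and were lower, not absent, in LSC GFP+ cells. In a bulk sample a lower signal can come from fewer cells that make a transcript or from less of it per cell, and these cannot be told apart here.

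Type V collagen sits inside type I fibrils and limits their width, and 2 of its chains were tested. Col5a1 read 1.28, 1.35 and 1.13 in LSC GFP+ cells and 2.33, 1.28 and 1.61 in LSC GFP- cells. The populations overlapped through LSC GFP- replicate 2, and the difference of -0.48 ± 0.29 (SE) did not pass the threshold (unadjusted p = 0.129). Leaving out an array moved it from -0.19 without LSC GFP- replicate 1 (unadjusted p = 0.481) to -0.71 without LSC GFP- replicate 2 (unadjusted p = 0.043). Col5a3 read -4.23, -6.13 and -4.88 against -3.70, -3.69 and -3.74. It fell by 1.37 on the log2 scale (adjusted p = 0.393), but it was above background on only 1 of the 3 LSC GFP+ arrays, so its size there rests on dim spots, and the fall was 0.84 without LSC GFP+ replicate 2 and 0.41 with normexp background correction. Col5a2 was above background on no LSC GFP+ array and on 2 LSC GFP- arrays and was not tested.

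Col27a1, a fibrillar chain of cartilage and of several developing epithelia, moved the other way. It read 1.91, 1.73 and 1.28 in LSC GFP+ cells and 0.83, 0.51 and 0.27 in LSC GFP- cells. All LSC GFP+ samples lay above all LSC GFP- samples, by 2.15-fold (SE of 0.25 on the log2 scale), with an adjusted p of 0.190. Col11a2, a chain of the type XI fibrils of cartilage, differed by 0.06 ± 0.23 (SE) and overlapped. Col2a1, the main collagen of cartilage, was above background on 1 LSC GFP- array, and Col11a1 and Col24a1 on none.

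Type VI collagen had 4 genes, all tested, of which 3 fell. Col6a1 and Col6a2, which together with Col6a3 or a related chain build the beaded filament, have their probes near each other on chromosome 10 (chr10:76171538-76171597 and chr10:76058931-76058990). Col6a1 read -2.14, -3.28 and -2.47 in LSC GFP+ cells and 0.09, -1.34 and -0.77 in LSC GFP- cells. The samples did not overlap, and the difference was -1.96 ± 0.42 (SE), 3.88-fold, with an adjusted p of 0.173. Col6a2 read 0.41, -0.12 and 0.49 against 3.11, 1.39 and 2.13, also without overlap. Its difference of -1.95 ± 0.42 (SE), 3.87-fold, with an adjusted p of 0.173, was close to that of Col6a1. Col6a6, a relative of Col6a3, was dim throughout. It read -4.05, -4.46 and -4.04 in LSC GFP+ cells, with 2 of 3 arrays above background, and -3.15, -4.03 and -3.46 in LSC GFP- cells. It fell by 0.64 on the log2 scale with an unadjusted p of 0.047 in limma, which 11 of 15 alternative settings did not keep under the threshold, and with normexp background correction the difference was -0.08 (unadjusted p = 0.745). Col6a4 differed by 0.09 ± 0.40 (SE) and overlapped. Col6a3 is not analysed here.

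The order of the samples was shared by 7 of the 8 chains that fell. For Col1a1, Col1a2, Col3a1, Col6a1, Col6a2, Col6a6 and Col12a1, LSC GFP- replicate 1 was the highest and LSC GFP- replicate 2 the lowest of the LSC GFP- arrays. The samples of all 8 lower chains did not overlap between the populations. Every pair with the same replicate number was therefore bound to be lower in its LSC GFP+ member, and only the sizes add information. For Col1a1 the pairs differed by -2.64, -1.90 and -1.99, and for Col6a1 by -2.23, -1.94 and -1.70. Over all alternative settings the difference stayed between -2.49 and -1.79 for Col1a1, between -2.54 and -1.72 for Col1a2, between -2.37 and -1.56 for Col3a1, between -2.29 and -1.32 for Col6a1, and between -2.36 and -1.50 for Col6a2. Each of these 5 chains passed the threshold under all 16 settings.

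**Figure D2:**
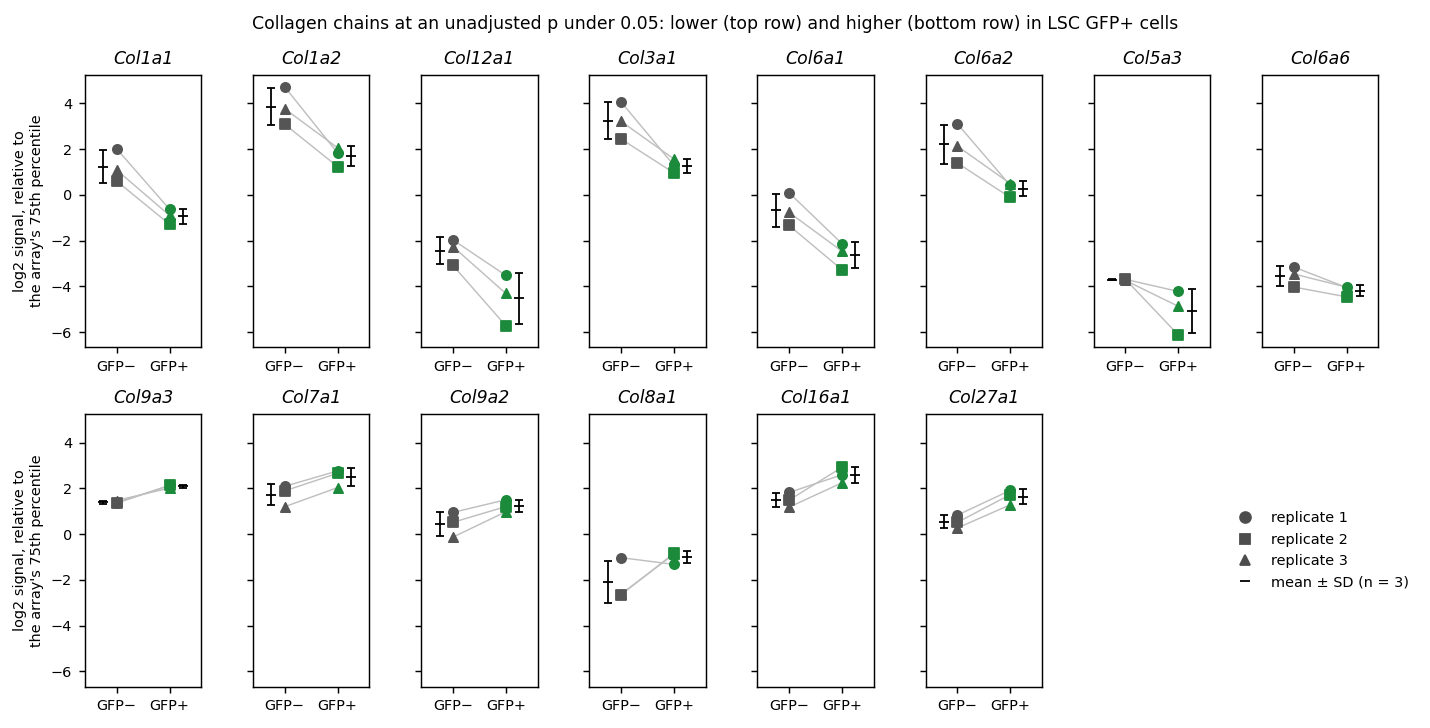
Log2 signal relative to the array's 75th percentile (vertical axis) in each LSC GFP- and LSC GFP+ sample for the 14 chains past the threshold, with lines joining samples of the same replicate number and bars for the mean and SD of 3 samples. In the upper panels, all 8 chains fall in every pair, as they must where the populations do not overlap. In the lower panels 5 of 6 rise in every pair, Col8a1 falling from -1.03 to -1.32 in replicate 1.

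The fibril-associated class had 9 genes, of which 8 were tested, 3 rose and 1 fell, with a median difference of 0.30. Col12a1, the type XII chain that lines type I fibrils in tendon, muscle and other dense tissue, was the one that fell. It read -3.52, -5.72 and -4.31 in LSC GFP+ cells and -1.97, -3.08 and -2.26 in LSC GFP- cells. The samples did not overlap and the difference was -2.08 ± 0.55 (SE) with an adjusted p of 0.266. Only 1 of the 3 LSC GFP+ arrays was above background, and the difference was -0.70 with normexp background correction, so its size rests on dim spots. Col14a1, the type XIV chain of the same kind of fibrils, did not go with it, at 0.25 ± 0.28 (SE), and its probe over the helix, printed above, gave -0.19 ± 0.23 (SE).

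Col16a1, a FACIT chain known from skin, cartilage and smooth muscle, was the FACIT with the largest rise at the brightest probe. Its brightest probe (chr4:129776460-129776519) read 2.60, 2.93 and 2.25 in LSC GFP+ cells and 1.82, 1.49 and 1.18 in LSC GFP- cells. The populations were apart by 1.09 ± 0.26 (SE), 2.13-fold, with an adjusted p of 0.217. A probe just upstream (chr4:129776333-129776392) gave 1.19 ± 0.27 (SE), 2.27-fold, with an adjusted p of 0.202. The Col16a1 probe over the helix, printed above, read -2.26, -2.46 and -3.11 against -2.61, -2.59 and -2.80 and gave 0.06 ± 0.26 (SE, unadjusted p = 0.829). The probes of Col16a1 thus disagreed, since the pair that rose lies downstream of the helix probe, which did not pass the threshold, and the other probe was above background on no array.

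Type IX collagen, a FACIT best known from cartilage, is made of 3 chains. Col9a3 read 2.13, 2.13 and 2.02 in LSC GFP+ cells and 1.35, 1.38 and 1.47 in LSC GFP- cells. These were the tightest samples of any chain past the threshold other than the LSC GFP- samples of Col5a3, with SDs of 0.066 and 0.062, and the difference was 0.69 ± 0.18 (SE), 1.61-fold, with an adjusted p of 0.257. Col9a2 read 1.50, 1.21 and 0.98 against 0.95, 0.52 and -0.13. Its samples lay just apart, by 0.79 ± 0.30 (SE) or 1.72-fold, with an adjusted p of 0.544. Col9a1 at its brightest probe read -1.47, -3.51 and -1.54 against -0.22, -1.65 and -1.03. The groups overlapped and the difference of -1.20 ± 0.59 (SE) missed the threshold (unadjusted p = 0.075). With the replicate number as a block it passed (unadjusted p = 0.0074), each pair being lower in the LSC GFP+ sample. Without LSC GFP+ replicate 2 the difference was -0.54 (unadjusted p = 0.246), and as the mean over both probes it was -0.50 (unadjusted p = 0.217). A second Col9a1 probe, far upstream (chr1:24201545-24201604), gave 0.20 ± 0.33 (SE).

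The other FACIT and related chains were close between the populations. Col19a1 was at 0.34 ± 0.19 (SE) and Col20a1 at 0.03 ± 0.36 (SE), with a second Col20a1 probe at -0.03. Neither passed the threshold, although the Col19a1 samples did not overlap. Col22a1 was above background on no array. Over all 10 tested genes that did not pass, differences ran from -1.20 for Col9a1 to 0.34 for Col19a1.

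The network-forming and anchoring chains numbered 4, of which 3 were tested and 2 rose. Col7a1, the chain of the anchoring fibrils that basal keratinocytes make, read 2.77, 2.66 and 2.04 in LSC GFP+ cells and 2.09, 1.89 and 1.20 in LSC GFP- cells. The populations overlapped, since LSC GFP+ replicate 3 lay just under LSC GFP- replicate 1, but each pair differed in the same direction, by 0.68, 0.77 and 0.84. The difference was 0.76 ± 0.31 (SE), 1.69-fold, with an unadjusted p of 0.038 and an adjusted p of 0.579 in limma. Col8a1, a chain of the type VIII networks around vessels and smooth muscle, read -1.32, -0.84 and -0.88 against -1.03, -2.65 and -2.62. Its rise of 1.09 ± 0.43 (SE, unadjusted p = 0.037) came from replicates 2 and 3, LSC GFP- replicate 1 being as high as the LSC GFP+ samples, and it missed the threshold with the replicate block (unadjusted p = 0.063). Without LSC GFP- replicate 1 the difference was 1.62, and with normexp 0.74. Its partner Col8a2 differed by -0.21 ± 0.24 (SE), and Col10a1, the chain of hypertrophic cartilage, was above background on 1 LSC GFP- array only.

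Several rises depended on single arrays. Leaving out replicate 2 of either population, or replicate 3 of LSC GFP-, left 3 higher chains past the threshold, and Col16a1, Col27a1 and Col9a3 passed in all 16 settings. Col9a2 was lost in 5 settings, Col7a1 in 7 and Col8a1 in 7, and without LSC GFP- replicate 3 both Col9a2 and Col7a1 were at 0.50. Of the 16 collagens followed through the alternative settings, the 14 past the threshold with Col5a1 and Col9a1, none changed direction in any of them.

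The transmembrane chains, whose outer part can be cut from the cell surface, showed no difference past the threshold. Col23a1 gave 0.16 ± 0.36 (SE) at its brightest probe and 0.16 at its other tested probe, and Col25a1 0.31 ± 0.23 (SE) at its brightest probe and 0.01 at the helix probe printed above. Col13a1, and the type VI-like Col28a1, which belongs to no class here, were above background on no array.

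**Figure D3:**
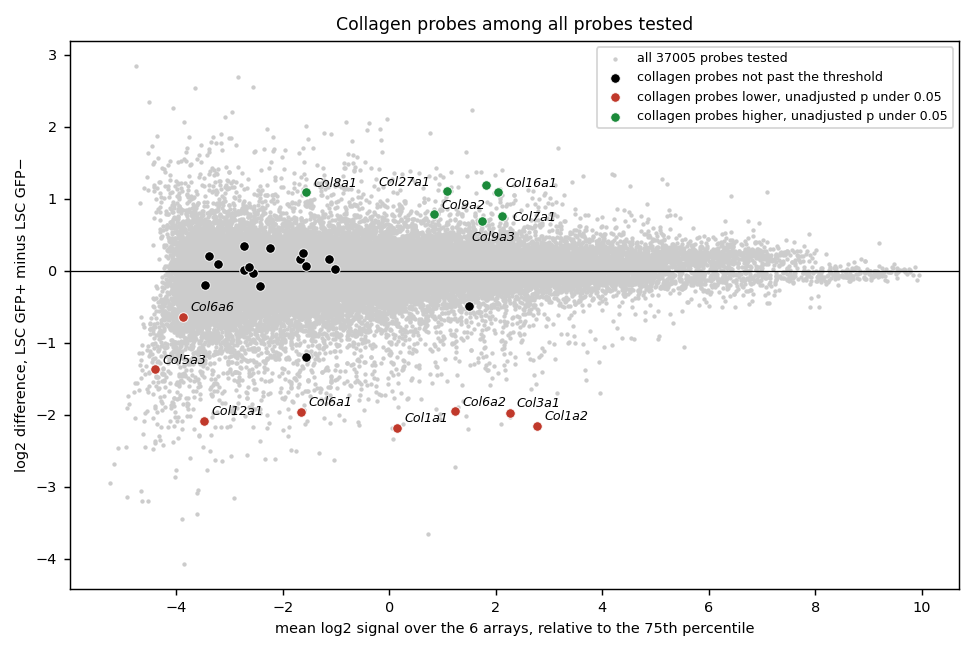
Log2 difference between LSC GFP+ and LSC GFP- cells (vertical axis) against the mean log2 signal over the 6 arrays (horizontal axis, relative to the 75th percentile) for all 37005 probes tested, with the collagen probes in colour. Col1a1, Col1a2, Col3a1 and Col6a2 lie near -2 at signals above 0, where the grey cloud of all probes is narrower than among dim probes.

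Of the 9 chains of types IV, XV, XVII and XVIII, which the rule left out, all were tested, 3 rose and none fell. These were 33.3% of the list, against 7.98% of all genes, and the median difference was -0.21, with 6 of the 9 below 0. Col4a1 and Col4a2, the chains of the common basement membrane network, were higher by 0.91 ± 0.23 and 0.96 ± 0.28 (SE), and Col17a1, the hemidesmosome collagen of basal cells, by 1.09 ± 0.24 (SE). Col18a1 gave -0.39 ± 0.20 (SE), which missed the threshold in limma (unadjusted p = 0.095) and passed it in limma with the replicate block (unadjusted p = 0.032). Its second probe was at -0.03.

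The enzymes and chaperones that make and cross-link collagen did not move as a group. Of 33 genes listed, 29 were tested, 3 fell and none rose, 10.3% against 7.98% of all genes, and the median difference was -0.01. With the replicate block 5 fell and 1 rose, where 14.6% of all genes passed in either direction. The further falls were Plod1, an intracellular lysyl hydroxylase, and Loxl1. The rise was P4ha3, a prolyl hydroxylase chain, at 0.38 (unadjusted p = 0.031 in limma with the block), with its second probe at 0.08. Serpinh1, which encodes a chaperone of the collagen helix, differed by 0.11 ± 0.22 (SE), and P4hb, a subunit of the prolyl hydroxylase, by 0.09 ± 0.24 (SE). Lox, the lysyl oxidase that cross-links fibrils, read -3.35, -5.00 and -4.04 in LSC GFP+ cells and -2.01, -2.52 and -2.85 in LSC GFP- cells. Its samples did not overlap, and it fell by 1.67 on the log2 scale (adjusted p = 0.242), with its second probe at -1.91. Lox was above background on 2 of the 3 LSC GFP+ arrays, so it and Pcolce2 entered the test only through LSC GFP- cells. Loxl3, a related oxidase, fell by 0.91 (adjusted p = 0.483). Pcolce2, which enhances the trimming of procollagen ends, was above background on no LSC GFP+ array and on all LSC GFP- arrays, and was at least 2.08-fold lower in LSC GFP+ cells (adjusted p = 0.140). The bound sets the LSC GFP- mean against, per LSC GFP+ array, the higher of the dimmest signal called above background and the probe's own signal.

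Of 10 collagen receptors and uptake genes, 6 were tested, 2 fell and none rose, 33.3% against 7.98% of all genes, with a median of -0.19. Ddr2, a tyrosine kinase receptor for fibrillar collagen found mainly on mesenchymal cells, read -2.48, -3.33 and -3.11 in LSC GFP+ cells and -0.25, -1.55 and -0.61 in LSC GFP- cells. The populations were well apart, by -2.17 ± 0.37 (SE), 4.51-fold, with an adjusted p of 0.109, and its second probe gave -1.33. Ddr1, the epithelial receptor of the same family, gave 0.10 ± 0.24 (SE) and overlapped. Itga1, the alpha chain of an integrin that binds collagen, was lower by 2.42-fold, at -1.28 ± 0.21 (SE), with an adjusted p of 0.107.

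The cell type markers were read in the same way. Past the threshold were 57.1% of the stromal and 85.7% of the smooth muscle markers tested, against 7.98% of all genes. Of 14 stromal markers tested of 15, 6 fell (Pdgfra, Lum, Twist1, Fap, S100a4 and Gli1) and 2 rose (Dcn by 1.19 and Fbln1 by 0.90), and their mean log2 signal ranged from -2.05 to -1.59 over the LSC GFP+ arrays and from -1.57 to -0.27 over the LSC GFP- arrays. Of the 6 that fell, 4 (Pdgfra, Twist1, Fap and Gli1) entered the test only through LSC GFP- cells, Twist1 being above background on no LSC GFP+ array. Of 7 smooth muscle markers tested of 8, 6 fell, with a median difference of -1.68, and their mean ranged from -0.59 to -0.09 in LSC GFP+ cells and from 0.79 to 1.66 in LSC GFP- cells. In both lists LSC GFP- replicate 1 had the highest mean and LSC GFP- replicate 2 the lowest of the LSC GFP- arrays, the order seen in the collagens above. This order was not particular to them, as the collagen biosynthesis, glial and neuronal, and basal lists had it too. The study places stromal cells in the CD49f-negative fraction, and it reports that its sorted LSC cells all carried the epithelial marker CD24. It found little or no Sca-1 and CD49f on vascular smooth muscle cells with high GFP, and gives no such measurement for smooth muscle cells without GFP. The part of stromal and smooth muscle cells in the collagen differences was not tested.

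Endothelial and immune cells carry the CD31 and CD45 that the sort selected against. No endothelial marker of 5 tested, no immune marker of 8 and no chondrocyte marker of 3 passed the threshold, and Matn1 and Matn3 of cartilage and Lmod1 of smooth muscle were above background on no array. The immune mean ran from -0.18 to 0.34 in LSC GFP+ cells and from -0.06 to 0.15 in LSC GFP- cells. Itgam (7.96 over the 6 arrays) and Csf1r (4.65) were bright, and the other immune markers tested were below 0. The chondrocyte mean ran from -0.54 to -0.50 and from -0.84 to -0.60. The endothelial list was uneven between arrays. Its mean was -0.59 in LSC GFP- replicate 3, against -1.64 and -1.61 in LSC GFP- replicates 1 and 2 and -2.08 to -1.47 in LSC GFP+ cells. Cdh5 and Tie1, which were not tested, read -2.24 and -2.47 in LSC GFP- replicate 3 and were above background on no LSC GFP+ array. Of 5 glial and neuronal markers tested, Ncam1 fell, all 5 differences were below 0 and the median was -0.66. Their mean ran from 0.49 to 1.32 in LSC GFP+ cells and from 1.01 to 2.20 in LSC GFP- cells. With the replicate block, where 14.6% of all genes passed, Tubb3 and Sox10 fell too, 3 in all, and Sox9 of the chondrocyte list rose. Basal markers were high in both populations, with a mean from 3.19 to 3.29 in LSC GFP+ cells and from 2.58 to 2.96 in LSC GFP- cells, and 4 of 9 rose while none fell. Of 8 luminal markers, 2 rose and 2 fell, with means from 3.35 to 3.88 and from 3.45 to 3.90.

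**Figure D4:**
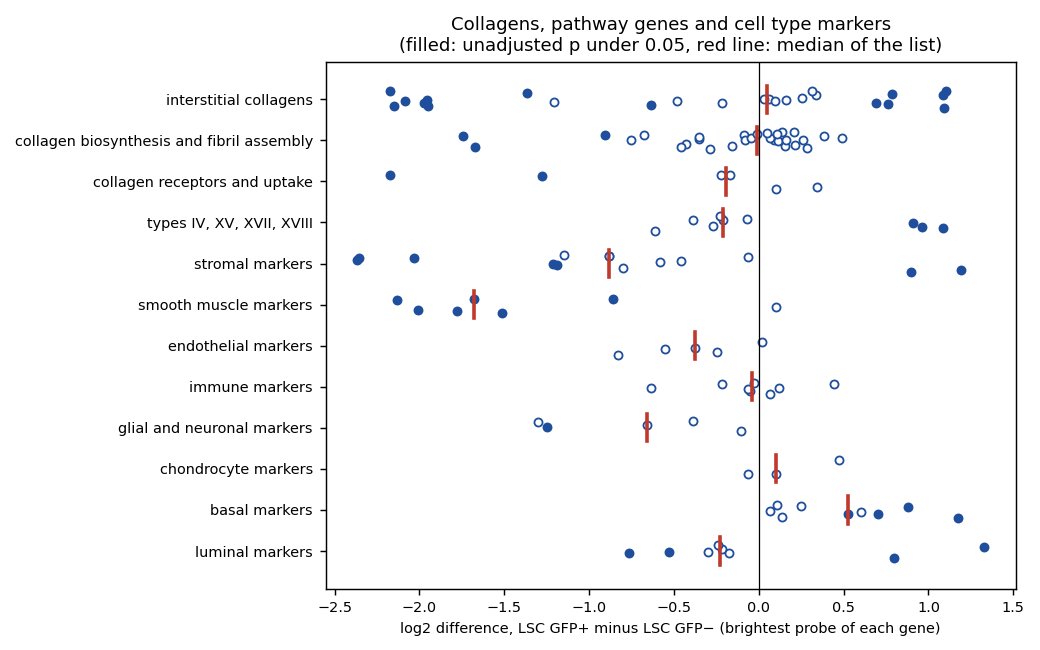
Log2 difference between LSC GFP+ and LSC GFP- cells (horizontal axis) of each tested gene, at its brightest probe, for the collagens, 2 pathway lists, the collagens outside the rule and 8 lists of cell type markers, with the median in red and filled points for an unadjusted p under 0.05. Of the collagens, the 8 filled points left of 0 lie from -2.18 to -0.64, and the 6 right of it lie at 0.69 or above. The 10 collagens not past the threshold lie from -1.20 to 0.34. The smooth muscle list has the lowest median, -1.68, and the basal list the highest, 0.52.

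Arrays were alike in quality. Between 36651 and 42123 probes were above background on an array, and of the 48 collagen probes between 28 and 34, while no spot was saturated. All 6 arrays shared a slide and a scan. The share of probes past the threshold that were lower in LSC GFP+ cells was 57.3% (1250 higher, 1675 lower). It was 49.2% after quantile normalization (1646 higher, 1592 lower), 46.9% with median scaling (1471 and 1299) and 43.6% by the test that the study's methods name (1579 and 1219). The median of all probes shifted by less than 0.1 under these scalings.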

How the data were processed

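The deposited scanner files hold, per the file headers, processed intensity values of Agilent Feature Extraction 11.0.1.1 (10.7.3.1 in the submitters' processing notes), with background subtracted, a spatial trend removed, dim spots substituted and no normalization between arrays. RNA was amplified before labeling with Cy3, and a table of the same intensity values rounded by the authors served as an alternative. Here, log2 of the deposited signal minus the 75th percentile of the array was used, without 123 to 154 outlier spots per array, with spots of a probe averaged. Probes that all 3 arrays of either population placed above background were tested two-sided with lmFit and eBayes of limma 3.58.1 (R 4.3.3), all 6 arrays, no covariate, Benjamini-Hochberg adjusted over all probes. The test was checked on simulated data with noise drawn independently for each array. That check does not cover the correlation of same-numbered samples given below. RefSeq symbols (GRCm38.p6) named 26582 probes, and the others kept the array's names.

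Replicate numbers come from the labels. Deviations from the population means of same-numbered samples correlated across probes at 0.43, 0.28 and 0.67. Samples with different numbers gave -0.55 to 0.22, and these correlations are not independent, since deviations within a population offset each other. On this basis the numbers were taken to pair samples. The replicate block was an alternative, beside normexp (offset 50), quantile and median scaling, the rounded table, 2 other filters, the methods' t-test, an intensity trend, the mean over a gene's probes and each array left out.

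Array values are given for type I, III and V chains and every collagen past an unadjusted p of 0.05, pathway genes are named when past it, and marker lists are given by count and mean level. Serpinh1, P4hb, P4ha3, Ddr1, Plod1, Loxl1, Col18a1, Cdh5, Tie1, Itgam, Csf1r, the marker genes past the threshold and second probes were added after their values were seen. The members, gene lists and motifs were chosen with earlier results of these data known.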

Additional observations from a re-analysis of the deposited data

How the results depend on the processing

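The number of arrays and dim spots limit the precision, and probes below background have no level. Over 16 collagens and 16 settings (253 combinations), none reversed, 217 kept their side of the threshold, 31 lost it and 5 gained it. The number of probes past an adjusted p of 0.05 was 1, and it was 0 with normexp, without a filter, with the filter on all 6 arrays, by the methods' t-test, with the intensity trend and with the replicate block, 3 with quantile normalization and 3 with median scaling, and 0 to 4 when 1 array was left out. With the replicate block 2495 probes were higher and 2985 lower, 14.8% of all, and 15 collagen probes passed, 14 of them among the 15 that passed without it. Apart from Col8a1, Col9a1 and, outside the rule, Col18a1, the block changed no call of a named collagen. Leaving out 1 array gave 867 to 1355 higher and 1153 to 2788 lower probes, the most lower probes without LSC GFP+ replicate 1. Collagen genes that fell numbered 5 with the filter on all 6 arrays and 7 to 11 with 1 array left out, and those that rose 3 to 6. The median difference of the collagens ranged from -0.21 to 0.17 with 1 array left out and was -0.22 without a filter, so its sign is not settled. Of the biosynthesis genes, 1 was higher with normexp, without a filter, with the intensity trend and with the replicate block, 2 by the methods' t-test, and 0 to 1 with 1 array left out (1 without LSC GFP+ replicate 2 or LSC GFP- replicate 1). Lower biosynthesis genes numbered 5 with the replicate block and with the mean over probes, and 2 to 5 with 1 array left out (5 without LSC GFP- replicate 2).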

Other observations

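A pair of collagen genes is printed on the array under older names and so fell outside the rule on gene names. Emid2, now Col26a1, read -0.85, 0.33 and 1.05 in LSC GFP+ cells and 1.11, 1.72 and 2.03 in LSC GFP- cells, above background on all 6 arrays. The LSC GFP+ samples lay below the LSC GFP- samples, by -1.45 ± 0.47 (SE) or 2.73-fold, with an unadjusted p of 0.016 and an adjusted p of 0.411 in limma. The replicate pairs, all lower in LSC GFP+ cells as the lack of overlap requires, differed by -1.97, -1.39 and -0.99. Gm7455, now Col6a5, a relative of Col6a6, had 2 probes that were above background on no array.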
